A study of Mus musculus with 4 samples.

Results

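The measurements described here are the A-to-G read counts at adenosines that lie in B2 elements within introns of mouse genes. Sites annotated as B2 and intronic were selected on their reads: in at least 1 of 4 libraries a site had a depth of 5 or more, at least 3 altered reads, and a rate from 0.05 to 0.95. The editing rate is the number of altered reads divided by all reads at the site. Of 35937 listed intronic B2 sites, 1796 met this rule, out of 24200 sites that met the same limits in the whole table of 1205261. They lay in 1327 elements and 881 genes. The rates themselves chose the sites, so the rates and their differences are given as a description. Where they stand beside those of other sites, these were selected by the same limits. The permutation and read tests given below use values that took part in the choice of sites, so their results are description as well.

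The libraries came from lung endothelial cells (ECs) of 2 male C57/BL6 mice aged 2 weeks, from independent litters, that the labels call an inducible EC-specific ADAR1 knockout. Cells of each mouse were cultured and either left untreated (CON) or given 4-OH-tamoxifen (TM) to delete the gene in vitro. This gave 1 CON and 1 TM library per mouse, and the mice are called EC1 and EC2. Rates in CON and TM are compared within each mouse, while the main tests on read counts and gene counts leave the mouse out. Runs of 4 values are in the order CON and TM of EC1, then CON and TM of EC2. Both groups carry the floxed gene and the inducible Cre, whose promoter is not given in the sources used here, and tamoxifen treatment of cells without the floxed gene was not analysed here, so that an effect of the drug cannot be told apart from that of the deletion.

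ADAR1 converts adenosine to inosine in double-stranded RNA, and sequencing reads inosine as guanosine. B2 elements are short interspersed repeats derived from tRNA that are abundant in mouse introns. When copies in opposite orientation lie in the same transcript they can pair with each other, and the paired RNA is a substrate for ADAR1. Unedited paired RNA is known to be recognised by sensors such as MDA5, the product of Ifih1.

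Sequence could be read for the elements that an annotated mouse transcript retains, and 5 of these are printed to show where editing falls in a B2 copy. They are given 5′ to 3′ on the strand of the host gene, from GENCODE vM21 transcripts of the mm10 (GRCm38) genome, with the included adenosines in capitals and bases counted from 1 at the 5′ end. The Herc1 copy (chr9:66373537-66373742, plus strand) and the Prpf39 copy (chr12:65044926-65045115, plus strand) are shown because single sites in them are described in the text, and the Capza1 copy (chr3:104827360-104827536, minus strand) because it held the most included sites, 5, among the elements with sequence. The Npc2 copy (chr12:84761928-84762123, minus strand) and the Ezh1 copy (chr11:101198164-101198349, minus strand) had 3 sites each. Capza1 encodes an actin capping subunit, Npc2 a cholesterol transfer protein and Ezh1 a histone methyltransferase.
Herc1 B3: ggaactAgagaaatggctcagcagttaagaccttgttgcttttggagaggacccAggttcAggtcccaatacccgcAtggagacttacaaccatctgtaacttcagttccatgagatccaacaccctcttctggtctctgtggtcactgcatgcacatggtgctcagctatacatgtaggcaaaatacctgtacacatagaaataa
Prpf39 B3: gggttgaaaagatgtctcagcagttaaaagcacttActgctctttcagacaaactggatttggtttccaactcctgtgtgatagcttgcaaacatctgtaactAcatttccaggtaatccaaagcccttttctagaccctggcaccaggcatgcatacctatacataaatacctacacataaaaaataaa
Capza1 B2_Mm2: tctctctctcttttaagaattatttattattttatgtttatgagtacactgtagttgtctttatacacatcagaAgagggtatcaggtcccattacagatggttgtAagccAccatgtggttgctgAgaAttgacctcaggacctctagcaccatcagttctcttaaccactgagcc
Npc2 B2_Mm2: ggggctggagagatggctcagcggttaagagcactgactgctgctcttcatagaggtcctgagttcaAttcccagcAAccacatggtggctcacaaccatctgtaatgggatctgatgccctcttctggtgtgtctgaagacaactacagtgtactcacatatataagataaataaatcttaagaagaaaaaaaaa
Ezh1 B3A: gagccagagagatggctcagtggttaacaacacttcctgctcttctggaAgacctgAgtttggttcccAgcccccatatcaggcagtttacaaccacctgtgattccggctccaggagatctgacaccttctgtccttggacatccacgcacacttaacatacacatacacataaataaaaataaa

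In Herc1, the gene of a very large E3 ubiquitin ligase, 4 adenosines at bases 7, 55, 61 and 77 of the printed copy were included. At base 7 (position 66373543), 7 of 14 reads were altered in CON and 2 of 13 in TM of EC1, against 11 of 20 and 1 of 19 in EC2. At base 61, the altered reads were 7 of 13, 2 of 17, 11 of 22 and 7 of 28 in the same order. The CON libraries were above the TM libraries at both adenosines in both mice. Base 77 was listed in EC2 CON alone, with 5 altered of 22 reads. The Capza1 copy went the other way at base 75, with 2 of 13, 6 of 18, 3 of 15 and 4 of 18 altered reads, so that TM was above CON in both mice. In the Ezh1 copy, base 50 had 2 of 21, 1 of 16, 3 of 12 and 2 of 13 altered reads, and CON was the higher in both mice, while base 57 had 1 of 23, 3 of 16, 1 of 11 and 2 of 16, and TM was the higher in both. In the Npc2 copy, bases 77 and 78 are adjacent adenosines, and at base 78 the altered reads were 1 of 5, 8 of 18, 3 of 5 and 8 of 31, with CON depth at the minimum of the rule.

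The base before the edited adenosine could be read for 139 included sites (7.74%), all of them A on the strand of the gene, and describes the sequence around editing. ADAR enzymes are known to disfavour a G before the target. G preceded 7.91% of the included adenosines (95% Wilson interval 4.48 to 13.6), against 16.8% of 2168 listed intronic B2 sites that did not meet the limits (15.3 to 18.5) and 23.7% of the 5164 other adenosines of the same elements (22.5 to 24.9). T preceded 49.6% of them (41.5 to 57.8), against 22.1% and 20.9%. C preceded 35.7% of the listed sites that did not meet the limits (33.7 to 37.7) and 18.7% of the included sites (13.1 to 26). G followed 41% of included adenosines (33.2 to 49.3), 46.6% of the listed sites that did not meet the limits and 28.4% of the other adenosines. The intervals cover counting error only, and the sites with sequence are those in retained introns and other annotated transcripts.

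Neither included nor other listed sites were spread evenly along the element. Each element was divided into 5 equal stretches from its own start. Stretches 2 and 3 held 34.6% and 25.7% of 791 sites in elements sense to the gene, and 36.1% and 33.6% of 1005 sites in antisense elements. For the other listed sites these shares were 29.5% and 24.1%, and 26.5% and 28.6%. Stretch 5 held 5.31% and 3.68%, against 9.62% and 7.34% of the other listed sites. Antisense elements held 56% of included sites (53.7 to 58.2) and 56.5% of the other listed sites (56 to 57), so that over all subfamilies together orientation to the gene differed by less than the counting interval. In the subfamily B2_Mm1t, antisense elements held 50.3% of included sites (43.2 to 57.3) and 58.9% of the other listed sites (57.5 to 60.4). These intervals lay close to each other, and the difference was not tested. The 189 included sites of this subfamily lay in 153 elements. Sites of the same element share its orientation, so the interval is too narrow.

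**Figure D1:**
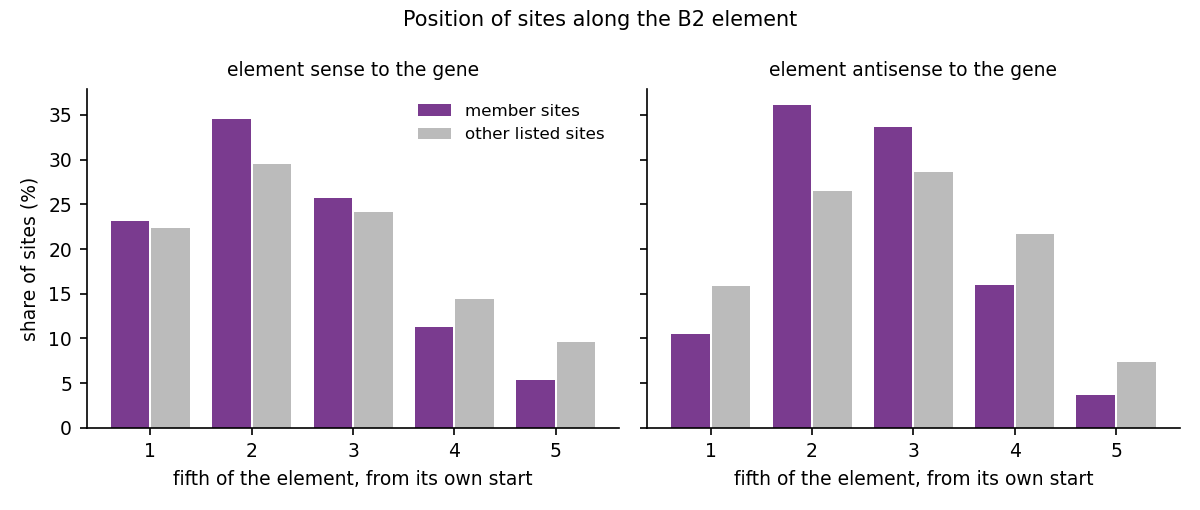
Share of sites, in percent, in each of 5 equal stretches of the B2 element counted from its own start, for elements sense (left) and antisense (right) to the gene. Purple bars are the included sites and grey bars the other listed intronic B2 sites, and the included sites peak in stretch 2, at 34.6% and 36.1%.

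Depth at the sites was low. Rows of the gene count tables, unassigned reads included, summed to between 131796753 and 207323870 per library. The median depth at listed included sites was 13, 12, 10 and 12 reads. The number of sites that met the limits was 884, 638, 638 and 754 in the same order, and 1131 sites (63%) met them in 1 library alone against 145 (8.07%) in all 4. At the edge of the rule, 250 to 344 of the sites that passed in a library had 3 altered reads, and 691 to 928 listed sites missed it there with 2. A site that a library does not list has an unknown depth and is entered with a rate of 0. For 128 to 169 such sites per library another site was listed within 50 bases, and 74.2% to 85.1% of these neighbours had 5 or more reads.

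The targeted gene was read first. In exon 2 of Adar, outside the deleted part, the median depth at listed sites was 158, 652, 176 and 974 reads. In exons 12 to 14, within the deleted part, it was 145 reads over 3 sites in EC1 CON, with no listed site in EC1 TM, and 169 over 1 site in EC2 CON against 65.5 over 2 sites in EC2 TM. Depth in the deleted part was thus below that of exon 2 in EC2 TM, and in EC1 TM it is unknown.

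The subfamilies of B2 differed in number. B3, the largest, had 791 included sites, B2_Mm2 421, B2_Mm1a 214, B2_Mm1t 189 and B3A 181. B3 sites were 6.71% of the listed intronic B3 sites, and the share was between 3.91% and 4.57% in the other subfamilies. Most elements held 1 included site (1029 of 1327, or 77.5%), and 98 elements (7.39%) held 3 or more.

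The comparison of CON with TM asks whether loss of ADAR1 lowers editing in intronic B2 copies. Each mouse was read over the included sites within the limits in either of its libraries. The mean editing rate was 0.305 in CON and 0.256 in TM of EC1 (1217 sites), and 0.338 and 0.315 in EC2 (1083 sites). TM was lower in both mice, by 0.0359 ± 0.0183 (SD, n = 2 mice). Sites not listed, and so entered at 0, numbered 268 in TM and 158 in CON of EC1, and 137 and 180 in EC2. With 2 mice the exact sign permutation test cannot go below p = 0.5, which is the value it gave. Where a site had 5 or more reads in both libraries of the mouse, the mean rate fell from 0.326 to 0.29 in EC1 (675 sites) and from 0.374 to 0.317 in EC2 (619 sites). The difference was then 0.0468 ± 0.0141 (SD, n = 2 mice). Of these sites 62.7% had a higher rate in CON than in TM in EC1 and 61.6% in EC2, against 56.8% and 58.8% of all sites of the table taken the same way. Included intronic B1 sites, the other common short repeat, gave 0.0577 ± 0.012 and intronic sites outside repeats 0.00452 ± 0.00743 on this measure. Included B2 sites outside introns gave 0.103 ± 0.0133, a larger value than that of the intronic B2 sites in both mice.

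Sites chosen in 1 mouse and read in the other give a value that the choice did not use. The 1217 sites chosen in EC1 had a mean rate of 0.249 in CON and 0.224 in TM of EC2. The 1083 sites chosen in EC2 had 0.233 and 0.226 in EC1. Both differences had the sign seen before, and that in EC1 was 0.00699. Among those with 5 or more reads in both libraries, the differences were 0.055 in EC2 (504 sites) and 0.0259 in EC1 (499 sites). Such a site had to be listed in both libraries of the mouse read, so this measure did use reads of that mouse. On this measure the whole table gave 0.0383 and 0.0204 and intronic sites outside repeats 0.00625 and 0.000673. With unlisted sites at 0 the whole table gave 0.0228 and 0.0137, so that the intronic B2 value of 0.00699 in EC1 was the lower one.

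By the rate-difference rule of the study (a difference of at least 0.05 with 5 reads, 3 altered reads and a rate up to 0.95 in the higher library), 611 of 1217 sites (50.2%) were higher in CON in EC1 and 446 of 1083 (41.2%) in EC2. Over all sites of the table the shares were 43.5% and 37.2%. In EC1 347 sites (28.5%) and in EC2 362 (33.4%) were higher in TM, against 28.6% and 33.4% over all sites. A library that did not list a site counted with a rate of 0 in this rule. There were 504 sites within the limits in at least 1 library of each mouse. Of these, 110 (21.8%) were higher in CON in both mice and 48 (9.52%) were higher in TM in both. A further 100 were higher in CON in 1 mouse and in TM in the other. The table as a whole had 21.2% and 11.3% for the shared directions, close to the shares of the intronic B2 sites. B3 had the largest share higher in CON in both mice, 63 of 257 (24.5%), with 17 (6.61%) higher in TM in both, and B2_Mm1a had 8 of 57 (14%) and 13 (22.8%).

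Subfamilies differed in the size of the fall. The mean rate of B3 sites was 0.299, 0.218, 0.352 and 0.292, a difference of 0.07 ± 0.0147 (SD, n = 2 mice). Of these B3 sites, 145 in EC1 and 58 in EC2 were not listed in TM, against 50 and 51 not listed in CON. For B3A the numbers were 32 and 16 in TM against 10 and 13 in CON. B3A gave 0.0484 ± 0.0227 and B2_Mm2 0.0263 ± 0.0172. B2_Mm1t gave 0.00387 ± 0.00608, no larger than its spread. B2_Mm1a was higher in TM, at 0.311 against 0.359 in EC1 and 0.344 against 0.415 in EC2. In this subfamily 28 sites in EC1 and 33 in EC2 were not listed in CON, against 17 and 8 not listed in TM, and where both libraries had 5 or more reads the difference was 0.00336 ± 0.0245. On that measure B3 kept 0.0569 ± 0.000326, B2_Mm2 gave 0.0561 ± 0.0342, B2_Mm1t 0.0458 ± 0.0631 and B3A 0.0227 ± 0.00422. The differences between subfamilies were not tested.

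**Figure D2:**
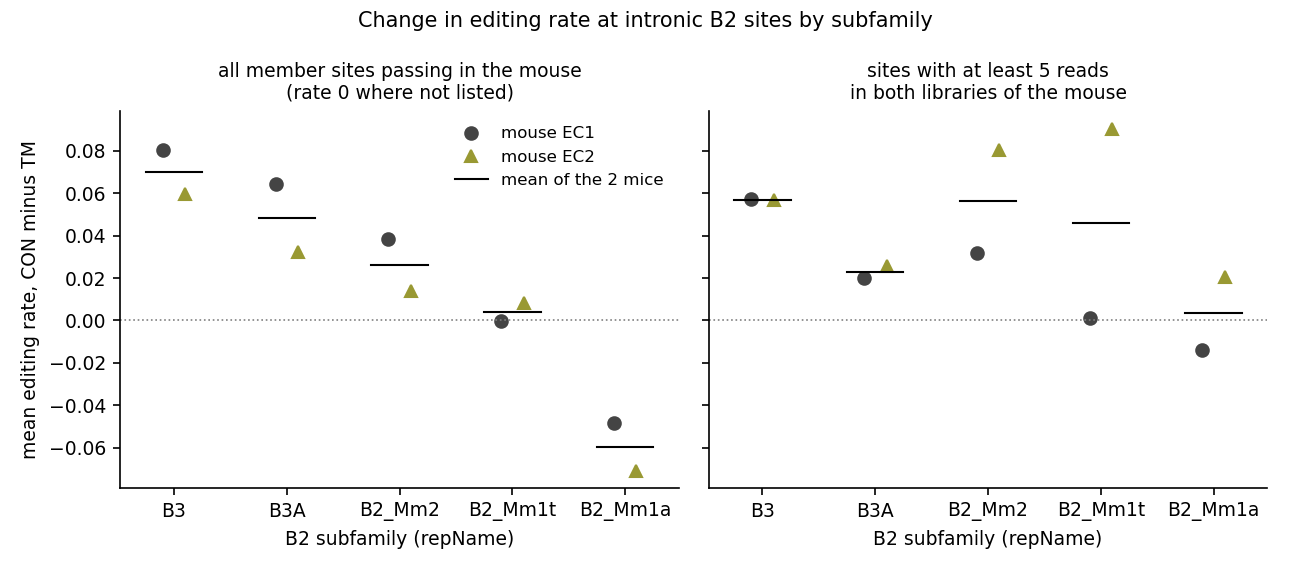
Mean editing rate in CON minus TM for each B2 subfamily, over all sites that met the limits in the mouse (left, rate 0 where not listed) and over sites with at least 5 reads in both libraries (right). Circles are mouse EC1, triangles EC2 and lines their mean, and B3 lies above 0 in both panels and both mice while B2_Mm1a lies below 0 in both mice on the left and in EC1 alone on the right.

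Elements with included sites lay near another B2 copy of opposite orientation more often than other elements did. Neighbours were taken from the B2 elements that the table lists, so copies without a listed site were not seen. Of the 1327 elements, 756 (57%, 95% Wilson interval 54.3 to 59.6) had a listed copy of opposite orientation within 2 kb, against 3974 of 13069 other listed intronic B2 elements with 5 or more reads (30.4%, 29.6 to 31.2). For copies of the same orientation the shares were 28.3% (26 to 30.8) and 25.7% (24.9 to 26.4). Within 500 bases an opposite copy was found for 25.8% and 11.1%, and a same-orientation copy for 12.6% and 11.6%. The position of a neighbour was not part of the rule. Because editing can itself cause a copy to be listed, the shares were also taken with neighbours that held no site within the limits. They were then 39.9% (37.3 to 42.6) and 27.4% (26.7 to 28.2) for opposite and 24.3% and 24% for same orientation. Such neighbours were still listed, so listing through altered reads outside the limits was not removed. The gap between included and other elements for opposite copies was present at every depth: 39.1% against 30% at 5 to 9 reads, 58.5% against 31.3% at 10 to 19, 69% against 30.9% at 20 to 49 and 67.7% against 26.1% at 50 or more.

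**Figure D3:**
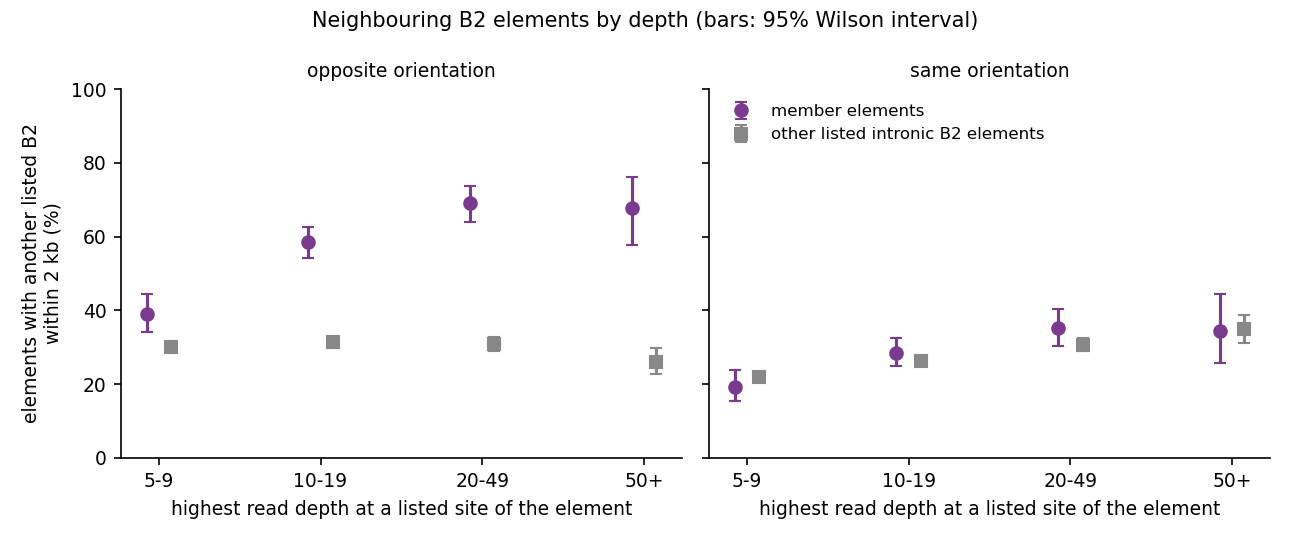
Share of B2 elements, in percent, with another listed B2 element within 2 kb in opposite (left) or same (right) orientation, by the highest read depth at a listed site of the element. Purple circles are elements with included sites, grey squares the other listed intronic B2 elements and bars 95% Wilson intervals, and the intervals are apart on the left at each depth and overlap on the right at each depth.

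The share with an opposite neighbour varied between subfamilies. An opposite copy lay within 2 kb of 66.8% of the B3 elements (62.9 to 70.6), 62.5% of B3A (54.4 to 70), 60.2% of B2_Mm2 (54.6 to 65.6), 37.9% of B2_Mm1t (30.6 to 45.8) and 29.9% of B2_Mm1a (23.4 to 37.3). For the other listed elements of these subfamilies it was 32.2%, 28.9%, 31.8%, 27.7% and 25.7%. The intervals of included and other elements overlapped for B2_Mm1a (23.5 to 28.1 for the others).

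The fall from CON to TM was larger at the sites with an opposite neighbour. Such a copy was listed within 2 kb of 1125 included sites and of none for 671, and rates were averaged over those with 5 or more reads in both libraries of the mouse. With such a copy the mean rate went from 0.293 to 0.239 in EC1 (487 sites) and from 0.329 to 0.248 in EC2 (406 sites). Without one it went from 0.412 to 0.421 in EC1 (188 sites) and from 0.46 to 0.449 in EC2 (213 sites). The mean differences were 0.0677 ± 0.0187 and 0.00105 ± 0.014 (SD, n = 2 mice), and 0.106 ± 0.033 with an opposite copy within 500 bases. With rates of 0 for unlisted sites they were 0.0613 ± 0.0148, -0.00912 ± 0.0166 and 0.0841 ± 0.00685. Within 500 bases 70.5% of the sites in EC1 and 76.1% in EC2 had a higher rate in CON, against 55.9% and 50.2% without an opposite copy within 2 kb. The split by neighbour was made after the data were seen, and with 2 mice it was not tested.

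**Figure D4:**
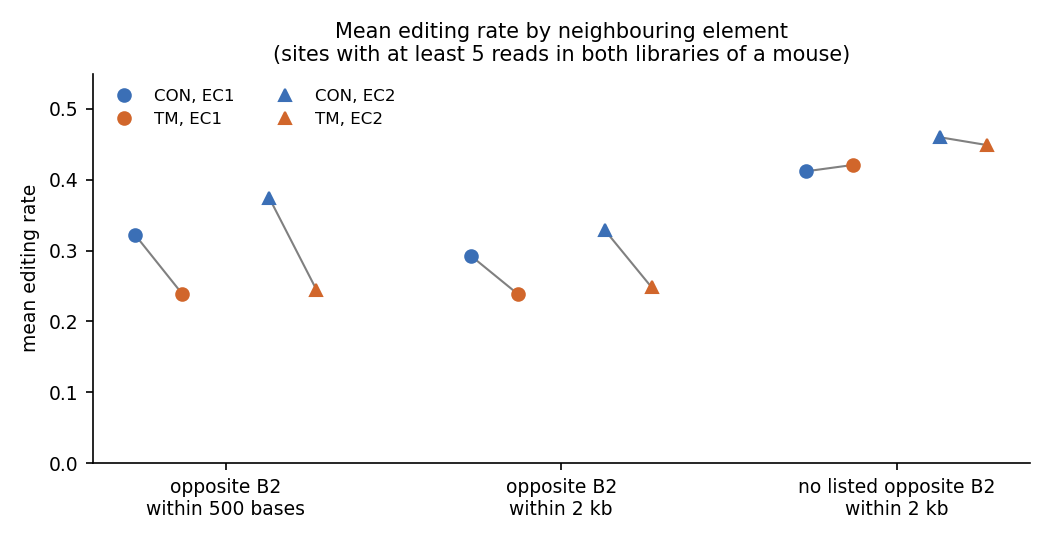
Mean editing rate in CON (blue) and TM (orange) of mouse EC1 (circles) and EC2 (triangles), for included sites with an opposite B2 element within 500 bases, within 2 kb, or with none listed within 2 kb. Lines join the libraries of a mouse, and they fall in the first 2 sets in both mice and stay between 0.412 and 0.46 in CON and 0.421 and 0.449 in TM in the last.

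Of the 10 elements with the most included sites, 4 formed a pair of facing copies in each of 2 genes. Zfp809, which encodes a zinc finger protein that silences retroviral DNA, had a B2_Mm2 copy with 10 sites (chr9:22241203-22241389) and a B2_Mm1t copy with 9 (chr9:22242558-22242737) on opposite strands of the same intron, 1168 bases apart. The mean rate over the 10 sites of the B2_Mm2 copy, with 0 where a site was not listed, was 0.111, 0.0676, 0.237 and 0.0973. In the B2_Mm1t copy it was 0.0578, 0.028, 0.176 and 0.0609. Both copies were higher in CON in both mice. In EC2 CON 9 sites of each copy met the limits, against 3 and 0 in EC1 CON, so the rule itself favoured high values in that library. Phldb2, the gene of a protein that anchors microtubules at the cell cortex, had a B3 copy (chr16:45796405-45796602) and a B2_Mm2 copy (chr16:45795697-45795885) on opposite strands of an intron, 519 bases apart, with 5 sites each. Their mean rates were 0.337, 0.266, 0.296 and 0.232, and 0.238, 0.206, 0.152 and 0.144. All 4 differences within a mouse were toward CON.

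Among the other leading elements, the B3 copy of Lims1, whose product links integrins to the cytoskeleton, had 7 sites (chr10:58411481-58411675) and mean rates of 0.22, 0.17, 0.225 and 0.137 in the same order. The B3 copy of Ctnnal1, an alpha-catenin relative (chr4:56819116-56819307, 7 sites), had 0.177, 0.114, 0.159 and 0.182, so that it fell in EC1 alone. In Rbbp7, a histone-binding protein gene, the 6 sites of the B2_Mm2 copy (chrX:162766028-162766165) rose, with 0.0556, 0.368, 0.167 and 0.196. That copy had a median depth of 3 reads in EC1 CON and 2 in EC2 CON against 13 in both TM libraries. Serinc3, a membrane protein gene, had a B2_Mm2 copy (chr2:163627086-163627203, 5 sites) with rates of 0.0412, 0.0108, 0.0819 and 0.0119 at median depths of 56 to 89.5 reads. Its 5 sites met the limits in CON libraries alone and TM listed 2 of them in each mouse, so that the rule itself favoured a fall. Smarca4, which encodes the ATPase of a chromatin remodelling complex, had a B3 copy (chr9:21682755-21682912, 5 sites) with 0.188, 0.155, 0.151 and 0.0902. The B3 copy of the adaptor gene Gab2 (chr7:97130191-97130393, 5 sites) had 0.332, 0.267, 0.476 and 0.251. An opposite B2 copy was listed between 37 and 1168 bases from each of the 10 elements.

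The sites with the most reads in these elements showed the same range. In Lims1 (position 58411503) 22.9%, 12.5%, 23.1% and 9.3% of reads were altered. In the B3 copy of Phldb2 (position 45796483) the values were 16.7%, 4.76%, 15.2% and 1.79%. In the B2_Mm1t copy of Zfp809 (position 22242693) they were 7.14%, 4.76%, 30% and 9.52%. All of these were higher in CON in both mice, and so were the sites in Ctnnal1, Serinc3, the B2_Mm2 copy of Phldb2 and Smarca4. In Rbbp7 the site was at 33.3% in EC1 CON, 46.2% in EC1 TM and 46.2% in EC2 TM, and it was not listed in EC2 CON. In the B2_Mm2 copy of Zfp809 the value was lower in EC1 CON (5.26%) than in EC1 TM (5.88%), and in Gab2 lower in EC2 CON (11.8%) than in EC2 TM (15%).

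At sites with 20 or more reads in every library the direction could be read with less counting error. Of 100 such included sites, 51 were lower in TM in both mice and 11 were higher in TM in both, and over the whole table the shares were 45.9% and 16.8%. Of the 87 with an opposite copy within 2 kb, 47 were lower and 6 higher in TM in both mice, and of the 13 without one, 4 were lower and 5 higher. Over the 451 included sites with 5 or more reads in every library, 179 (39.7%) were lower and 58 (12.9%) higher in TM in both mice, against 35.3% and 17% over the whole table. In 183 the mice went opposite ways.

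The 8 largest falls among the deep sites were in 6 genes. In the Smarca4 intron a second B3 copy faced the first one 60 bases away (chr9:21682973-21683145). At its position 21683062, 13 of 35, 4 of 35, 11 of 34 and 6 of 49 reads were altered. The rate fell by 22.9 ± 3.96 points (SD, n = 2 mice), and the rates of both CON libraries lay above those of both TM libraries. In Srcap, another chromatin remodelling ATPase gene, position 127554342 of a B2_Mm1a copy had 10 of 34, 1 of 23, 7 of 20 and 4 of 27 altered reads. In Ubxn4, which encodes a protein of endoplasmic reticulum quality control, position 128273904 of a B3 copy had 6 of 29, 1 of 35, 5 of 24 and 1 of 37. The falls in EC1 and EC2 were 25.1 and 20.2 points in Srcap and 17.8 and 18.1 in Ubxn4. In the ubiquitin ligase gene Nedd4 nearby sites of a B3 copy went from 74.4% to 58.1% in EC1 and from 71% to 50% in EC2 at position 72670273, and from 52.4% to 45% and from 55.2% to 28.6% at position 72670266. These sites share reads and are not independent of each other. The site of the splicing factor gene Prpf39 (position 65045029, base 104 of the printed copy) had 7 of 29, 5 of 22, 9 of 25 and 3 of 44 altered reads, so that its fall of 1.41 points in EC1 was small beside 29.2 points in EC2. In Lims1 (position 58411507) the share went from 68.1% to 61% in EC1 and from 63.2% to 40.5% in EC2, and in the first Smarca4 copy (position 21682781) from 52.2% to 47.8% and from 57.1% to 29%. At each of the 8 sites the Wilson intervals of CON and TM overlapped in both mice, except at the Prpf39 site in EC2. The 8 sites were chosen as lower in TM in both mice, so their direction follows from the choice.

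The 4 largest rises were smaller. Npepps, an aminopeptidase gene, had 6 of 45, 14 of 57, 3 of 28 and 5 of 30 altered reads at position 97239885 of a B3 copy, where CON minus TM was -8.59 ± 3.73 points (SD, n = 2 mice). The predicted gene Gm21119 had 14.3%, 19.2%, 3.45% and 12.5% (position 20280088), and the gene of the mitochondrial protein Apopt1 25%, 26.3%, 25.5% and 36.8% (position 111734134). At position 74937588 in Smg6, which encodes an endonuclease of nonsense-mediated decay, 91.3%, 97.5%, 93.5% and 98% of reads were altered. This site was near complete alteration in all libraries and had no opposite B2 copy listed within 2 kb. The Wilson intervals of CON and TM overlapped in both mice at each of these 4 sites.

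**Figure D5:**
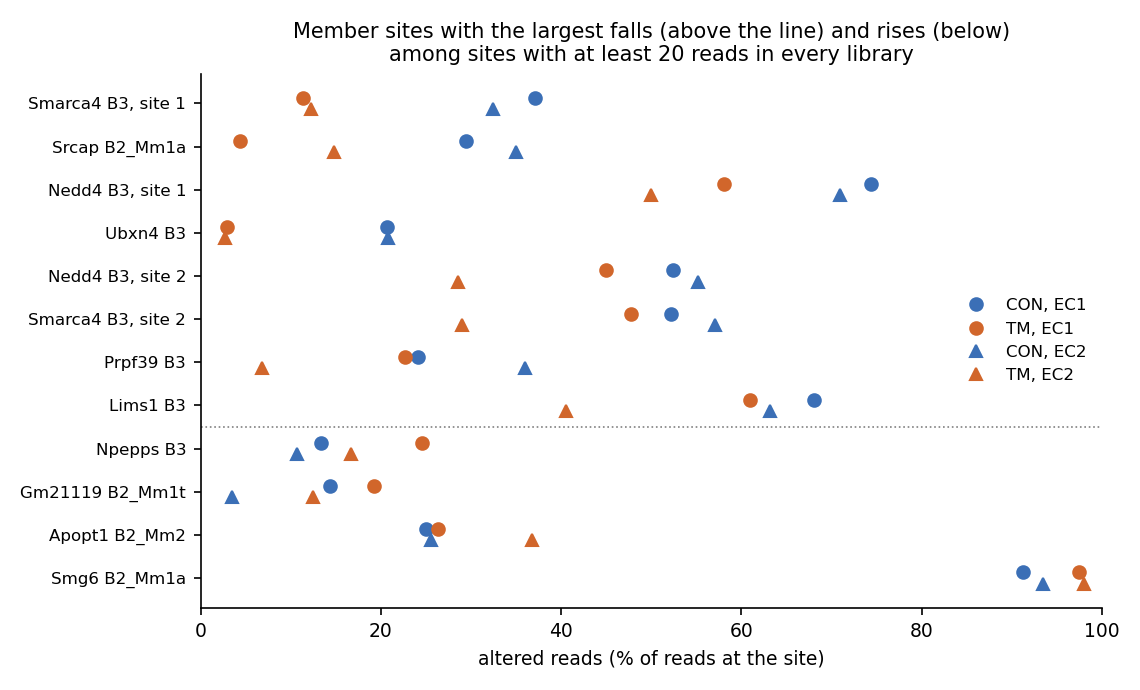
Altered reads as a percentage of reads at the 8 included sites with the largest falls (above the dotted line) and the 4 with the largest rises (below), among sites with at least 20 reads in every library. Blue is CON and orange TM, circles are mouse EC1 and triangles EC2, and the sites in Smarca4 (site 1), Srcap and Ubxn4 have CON and TM apart by 17.8 to 25.7 points in both mice.

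A test on the reads themselves, fitted without the mouse as a block, called no included site. The quasi-likelihood test of edgeR was fitted to reference and altered reads of 7150 sites of the table, 434 of them included intronic B2 sites, and p was adjusted by Benjamini-Hochberg over all of them. It called 0 of the included sites lower and 0 higher in TM, and 0% and 0% of all sites, with 28 lower and 4 higher at an unadjusted p under 0.05, against 530 and 66 of the 7150 sites. The log2 ratio of altered to reference reads, TM over CON, had a median of -0.43 over the included sites and -0.23 over all sites tested, and was negative at 289 of the 434 sites and at 4333 of all 7150. With the mouse as a replicate block the same test called 1 included site lower, base 7 of the Herc1 copy (adjusted p = 0.0367 in edgeR's test), and 0 higher, against 2.56% lower and 0.0979% higher over all sites. The Cochran-Mantel-Haenszel test over both mice, on reads alone, called this site and position 21683062 of Smarca4 lower and 0 higher, against 4.13% and 0.266%. Fisher's exact test called 0 included sites the same way in both mice, 2 lower and 1 higher in EC2, and 0 in EC1. Over all 7150 sites it called 50 lower and 2 higher in both mice, 215 and 13 in EC2 and 71 and 6 in EC1.

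The genes that carry the included sites were read in the deposited gene counts. Between 0.823% and 0.858% of each table was assigned to genes and 92.8% to 93.9% to no feature. The kit marks strand and the methods give default settings, which in HTSeq count the sense strand. Whether that setting fits these libraries was not tested, so the gene counts may hold reads of the other strand and are given as deposited. Adar had 9, 47, 16 and 71 counts over the whole gene. The median depth at listed sites of its exon 2 was 158, 652, 176 and 974 reads, so the counts left out reads of this gene. Changes given below are thus changes in these counts and may differ from those in expression. In bulk samples fewer cells and less RNA per cell cannot be told apart either. The 10 endothelial markers summed to 1130 to 1360 CPM (gene counts scaled to library size) per library, with Cdh5 at 442 to 869 counts but Vwf at 0 to 2 and Icam2, on which cells were sorted, at 8 to 13. Of 8 tested, Cldn5, a tight junction gene, was lower in TM (47, 23, 57 and 22 counts), and with the replicate block Tie1 was too (adjusted p = 0.0251 in edgeR's test). The 4 leukocyte markers summed to 31.9 to 50.2 CPM, with Ptprc at most 1 and Cd3e at 0 but Cd79a at 23 to 35 and Cd68 at 10 to 39 counts. The 4 stromal markers summed to 45.5 to 62.9 CPM and the 3 epithelial ones to 1.64 to 6.18, and their part in the results was not tested. Of 630 host genes tested, 22 (3.49%) were called higher and 14 (2.22%) lower in TM by the same edgeR test on gene counts, against 4.39% and 3.35% of all 7899 genes. With the mouse as a replicate block 43 (6.83%) and 37 (5.87%) were called, against 7.6% and 7.39%. Of the 16 host genes of the named elements and sites, 14 were tested and 0 called, with adjusted p from 0.17 to 0.946 in edgeR's test. With the replicate block Prpf39 (adjusted p = 0.00156) and Smg6 (adjusted p = 0.0095) were called lower in TM by edgeR. Herc1, the host of the site called by the blocked read test, was not among these 16 genes. It was not called by edgeR without the block (log2 fold change -0.761, adjusted p = 0.156) and was called lower with it (adjusted p = 0.0314).

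Of 16 genes for RNA editing and double-stranded RNA sensing, 11 were tested, and 7 were higher and 0 lower in TM. With the replicate block edgeR also called Eif2ak2, the gene of the kinase PKR, higher (adjusted p = 0.00213) and Dhx58, the gene of the sensor LGP2, lower (adjusted p = 0.0141). Adar itself was among those called higher, with 9, 47, 16 and 71 counts over the whole gene, where the deletion leaves the other exons. In every library these counts lay below the median depth at listed sites of exon 2, so they left out reads of the gene. Ifih1 had 2, 36, 0 and 53 counts (log2 fold change 4.97, SE 0.759, adjusted p = 2.64e-05 in edgeR's test), and Tlr3, Zbp1, Oas1a, Oasl1 and Oasl2 were the others. Only Oasl2 and Adarb1 of this list held included sites. Oasl2, a 2′-5′ oligoadenylate synthetase-like gene, had 5, 44, 0 and 100 counts. Its B2_Mm1t site (position 114909610) had 7 of 45 altered reads in EC1 TM and 19 of 62 in EC2 TM and was not listed in either CON library. Adarb1, the gene of ADAR2, had 24, 13, 27 and 21 counts (adjusted p = 0.267), and at position 77314680 of a B2_Mm1a copy 11 of 54, 3 of 25, 6 of 41 and 3 of 14 reads were altered.

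Sites in genes that rose gained depth with them. The host genes with the smallest p among those higher in TM were Parp9, Phf11d and Gbp2. Parp9, an ADP-ribosyltransferase gene, went from 164 to 2453 counts in EC1 and from 259 to 3630 in EC2. At position 59352545 of a B3 copy in Phf11d 4 of 14, 29 of 147, 5 of 10 and 21 of 138 reads were altered. The number of altered reads rose there while the rate went from 28.6% to 19.7% and from 50% to 15.2%. The site of the guanylate-binding protein gene Gbp2 (position 142636149) had 2 of 2, 34 of 34, 1 of 1 and 14 of 35 altered reads. Over the 35 included sites of the 22 host genes called higher, reads rose from 227 to 1071 in EC1 and from 154 to 1143 in EC2, sites within the limits rose from 10 to 16 and from 5 to 21, and the altered share of reads went from 21.1% to 14.7% and from 22.1% to 13.9%. Reads at sites that a library did not list are missing from these sums, and what this did to the shares was not tested.

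The host genes with the smallest p among those lower in TM were Serinc5, Ldb2 and Fzd6. At position 39014193 of a B3 copy in Fzd6, a Wnt receptor gene with 27, 3, 32 and 15 counts, 23 of 59, 7 of 18, 13 of 40 and 7 of 23 reads were altered. The rate there stayed between 30.4% and 39% while depth fell. Over the 27 sites of the 14 host genes called lower, reads went from 659 to 229 and from 430 to 245, and the altered share from 27.3% to 35.4% and from 22.1% to 29.8%. Sites that a library did not list added no reads to these sums. Examples are positions 39014165 and 39014167 of Fzd6 in EC1 TM and the Ldb2 site in both TM libraries. How far listing moved the shares was not tested. In the 594 host genes tested and not called, the altered share went from 23.6% to 22.7% in EC1 and from 25.9% to 24.2% in EC2.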

How the data were processed

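RNA of the 4 libraries was depleted of ribosomal RNA (KAPA RNA HyperPrep with RiboErase) and sequenced. The submitters' processing notes name Trimmomatic 0.38, STAR 2.6.1a and HTSeq 0.11.2, used by the authors for trimming, alignment to mm10 and gene counts. Mismatches were called by BCFtools mpileup in each library, those reading A-to-G on the strand of the annotated gene were retained, and RepeatMasker gave the repeats. The deposited site table gives counts of reference and altered reads and the altered fraction per library, and the deposited gene tables give raw counts. Site calls follow the strand of the gene, and genomic variants were not tested.

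Rates were recomputed from the reads. Members and gene lists were chosen with earlier results of these data known. Elements named were the 10 with the most included sites, and sites named were the deepest in each, the 8 largest falls and 4 largest rises among sites with 20 reads in every library. The sites with sequence and those called by other tests were named after their values were seen. edgeR 4.0.16 (R 4.3.3) was fitted over all sites with 5 reads in every library and a pooled rate of 0.05 to 0.95, and over all genes kept by filterByExpr with TMM scaling. The Benjamini-Hochberg threshold was 0.05, and both scripts were tested on simulated data. DESeq2 1.42.0 was an alternative. CON and TM of a number come from the same mouse, so the numbers pair the libraries, and the deviations from the group means correlated at 0.156 over 7894 genes. Replicates are cultures of separate mice. No series column was left without a sample. Rows of no gene, of which the unassigned share was 92.8% to 93.9%, were left out of the gene test. The neighbour analysis was added after the data were seen. Depth limits single sites to wide Wilson intervals, which cover counting error only.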

Additional observations from a re-analysis of the deposited data

How the results depend on the processing

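The fall of the mean rate from CON to TM kept its direction under all 10 alternatives, from 0.023 to 0.0488, the same limits that leaving out 1 mouse gave. Comparing group means with no replicate block gave 0.0359, equal to the paired value, with an exact permutation p of 0.667. For B2_Mm1a the value became 0.00336 with 5 reads in both libraries of a mouse and 0.00259 when weighted by reads, against -0.0291 at 10 reads, -0.0256 at 20 reads and -0.0852 with 5 altered reads, and leaving out a mouse gave -0.0708 to -0.0482. For B2_Mm1t it was 0.0236 at 10 reads, 0.0147 at 20, 0.0458 with 5 reads in both, 0.05 weighted by reads and -0.0216 with each element counted once (-0.000432 to 0.00817 without a mouse). For B2_Mm2 it was 0.0561 with 5 reads in both and 0.053 weighted by reads (0.0141 to 0.0385), for B3 0.052 at 10 reads, 0.0508 at 20 and 0.0518 weighted by reads (0.0596 to 0.0804), and for B3A 0.0227 with 5 reads in both (0.0323 to 0.0644). Why these moved was not tested.

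Counts by the rate-difference rule fell with stricter limits, in the order EC1, EC2 and both mice. Higher in CON there were 184, 126 and 35 sites at 20 reads and 216, 165 and 49 with 5 altered reads, and 314 and 292 in EC1 and EC2 with 5 reads in both libraries, and 71 in both mice at a difference of 0.10. Higher in TM there were 217, 233 and 23 at 10 reads, 84, 85 and 11 at 20, 107, 140 and 17 with 5 altered reads, and 166, 157 and 17 with 5 reads in both libraries. The read test called 1 site lower with the mouse as a replicate block and 2 with the Cochran-Mantel-Haenszel test, over both mice as a block, and 0 in the 8 other alternatives, each library left out in turn included. The blocked fit of host genes called 43 higher and 37 lower and DESeq2 14 and 7, and leaving out a library gave 16 to 25 higher and 5 to 13 lower, the 5 without EC2 CON. Sites with fewer than 20 reads carry intervals too wide to order single sites.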

Other observations

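Some included sites were seen in 1 mouse alone. Of 309 sites within the limits in both libraries of EC2, 43 (13.9%) were listed in neither library of EC1, and their median rate was 0.5 in CON and 0.5 in TM. Of 305 such sites in EC1, 17 (5.57%) were listed in neither library of EC2, with medians of 0.444 and 0.5. An example is a B3 copy in an intron of Mettl3, the gene of the RNA methyltransferase for N6-methyladenosine, where 24 of 51 reads were altered in EC2 CON and 30 of 83 in EC2 TM at position 52296273, with no listing in EC1. Whether these are genomic differences was not tested.

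Over sites with 5 reads in both libraries of the mouse, elements with 3 or more included sites had mean rates of 0.269 (CON) and 0.258 (TM) in EC1, and 0.321 and 0.213 in EC2. Elements with 1 site had 0.351 and 0.314, and 0.4 and 0.383. The difference between CON and TM was 0.0595 ± 0.0686 and 0.0274 ± 0.0145 (SD, n = 2 mice), so that the spread between mice was the larger value in the first set.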
